A study of Homo sapiens with 16 samples.

Results

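Cytosolic ribosomal protein genes were followed across 16 human cell lines of T-ALL, the acute lymphoblastic leukemia of T-cell precursors. Members were the genes whose symbol in the array annotation is RPL or RPS with a number, optionally followed by A, X or L, together with RPLP0, RPLP1, RPLP2 and RPSA. Pseudogenes, the RPS6K kinases and Y-linked genes were left out. The rule gave 56 members, 35 of the large and 21 of the small subunit, among 19775 genes that have a probe set naming only them. A further 25 protein-coding genes fit the same rule but have no such probe set, and they were not analysed here. Among them are RPL5, RPL10 and RPL26. RPLP0 and RPSA, though named in the rule, have no such probe set either and are not among the members.

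Total RNA of each line was hybridised to 1 Affymetrix U133 Plus 2.0 array. The lines were ALL-SIL, CCRF-CEM, DU528, HSB-2, JURKAT, KOPT-K1, LOUCY, MOLT-16, MOLT-4, P12-ICHIKAWA, PEER, PF-382, SKW-3, SUP-T11, SUP-T13 and TALL-1. All were grown alike and untreated, with 3000000 cells in 10 ml of RPMI-1640 with 10% fetal bovine serum for 24 h. They form 1 group with no control cells, and with a single array per line there is no replicate error, so every SD below is a spread between lines. Each line stands for the leukemia it was grown from, after selection in culture.

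The cytosolic ribosome is built from a large and a small subunit, each a scaffold of ribosomal RNA carrying ribosomal proteins, most of which are encoded by a single active gene. Their messenger RNAs are among the most abundant in dividing cells. Most begin with a cytosine followed by a run of pyrimidines, the terminal oligopyrimidine (TOP) tract, through which mTORC1 signalling controls their translation, and MYC is known to raise their transcription. A few members have a second gene, or paralog, with narrower expression. In T-ALL the module is of interest because RPL22, RPL10 and RPL5 are mutated or deleted in some patients.

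The start of transcription was shown for the members whose levels carry the results below, since the TOP tract begins there. Each sequence is from RefSeq on GRCh38.p14, written 5′ to 3′ on the strand of the gene, with 30 bases before the annotated start and 20 bases from it onward. Capitals mark the pyrimidine run that begins with a cytosine at the start. RPS12 lies at chr6:132814539-132814588 on the plus strand, RPL12 at chr9:127451387-127451436 on the minus strand, RPL31 at chr2:101002259-101002308 on the plus strand and RPS6 at chr9:19380217-19380266 on the minus strand. RPL22 lies at chr1:6199576-6199625 and RPL39 at chrX:119791611-119791660, both on the minus strand. The paralogs RPS27L at chr15:63157458-63157507 and RPL10L at chr14:46651762-46651811, also on the minus strand, have no such run at the start and are shown for contrast.
RPS12: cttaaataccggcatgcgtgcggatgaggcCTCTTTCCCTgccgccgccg
RPL12: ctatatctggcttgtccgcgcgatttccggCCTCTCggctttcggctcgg
RPL31: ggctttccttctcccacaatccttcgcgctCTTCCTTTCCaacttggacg
RPS6: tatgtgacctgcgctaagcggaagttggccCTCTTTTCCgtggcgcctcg
RPL22: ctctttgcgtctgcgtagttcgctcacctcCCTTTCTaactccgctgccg
RPL39: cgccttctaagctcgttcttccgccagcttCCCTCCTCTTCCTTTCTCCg
RPS27L: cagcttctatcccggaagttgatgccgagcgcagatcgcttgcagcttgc
RPL10L: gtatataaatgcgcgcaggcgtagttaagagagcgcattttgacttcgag

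Of the 56 members, 48 had a promoter entry running from 250 bases before to 50 bases after the start. A cytosine followed by at least 4 pyrimidines began within 10 bases of the start in 42 of the 48 (87.5%), against 38.4% of 27305 genes with an entry. Within 2 bases of the start it was present in 38 (79.2%), against 13.03% of the genes. The 6 members with no run within 10 bases were RPL10L, RPL27, RPL6, RPS27L, RPS29 and RPS4X, so 2 of them are paralogs. Over the whole window, on both strands, CGGAAG (a core of ETS factor motifs) was found in 33 of the 48 (68.8%), against 22.6% of the genes. CACGTG, the E-box that MYC and MAX can bind, was found in 3 (6.25%), RPL19, RPS19 and RPS28, against 8.77%. TATAAA was found in 4 (8.33%) against 13.99%, and AAGATGG, within the YY1 motif, in 5 (10.4%) against 7.11%. These matches describe letters in the window and show no binding.

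Intensities over the whole table ran from 0.6 to 24485, with a table median of 42.37 and array medians between 37.6 in MOLT-16 and 45.0 in LOUCY. The arrays carry control probe sets at both ends of ACTB, and 3′ over 5′ signal, which rises as RNA is degraded or labelled incompletely, ran from 1.44 in DU528 to 2.03 in MOLT-4. Of the 12 measured T-cell markers, 6 exceeded 4 times the table median in every line and none stayed below it in every line. Their summed intensity ran from 21554 in MOLT-16 to 58149 in KOPT-K1. Several defining markers of other cells never exceeded 4 times the median in any line, namely 3 of 6 of B cells, 4 of 5 of myeloid cells, 2 of 4 of erythroid and megakaryocytic cells and 5 of 7 of stroma. Of B-cell markers 1 exceeded it in all lines. Summed intensities were highest in LOUCY for B-cell markers (402 to 1661 over the lines), erythroid and megakaryocytic markers (96.8 to 783) and stromal markers (176 to 2812), and in DU528 for myeloid markers (97.9 to 487). LOUCY is also the low line of several members below, and the part of these markers in that was not tested. Levels in a bulk extract do not tell fewer expressing cells from less RNA per cell.

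Ribosomal protein genes were bright and nearly level across the lines. Of the 56 members, 52 were above the table median in all 16 lines, including all 21 of the small subunit, and 49 averaged over 10000. Log values below are log2(intensity + 16). The median SD over lines was 0.087 for the members, 0.354 for all genes and 0.408 for the 13310 genes above the table median in at least 3 lines. An SD above 0.25 was seen in 6 members, against 80.3% of all genes. An SD above 1 was seen in 1 member, against 12.5% of all genes. An SD below 0.1 was seen in 34 members, out of 107 genes in the whole table.

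**Figure D1:**
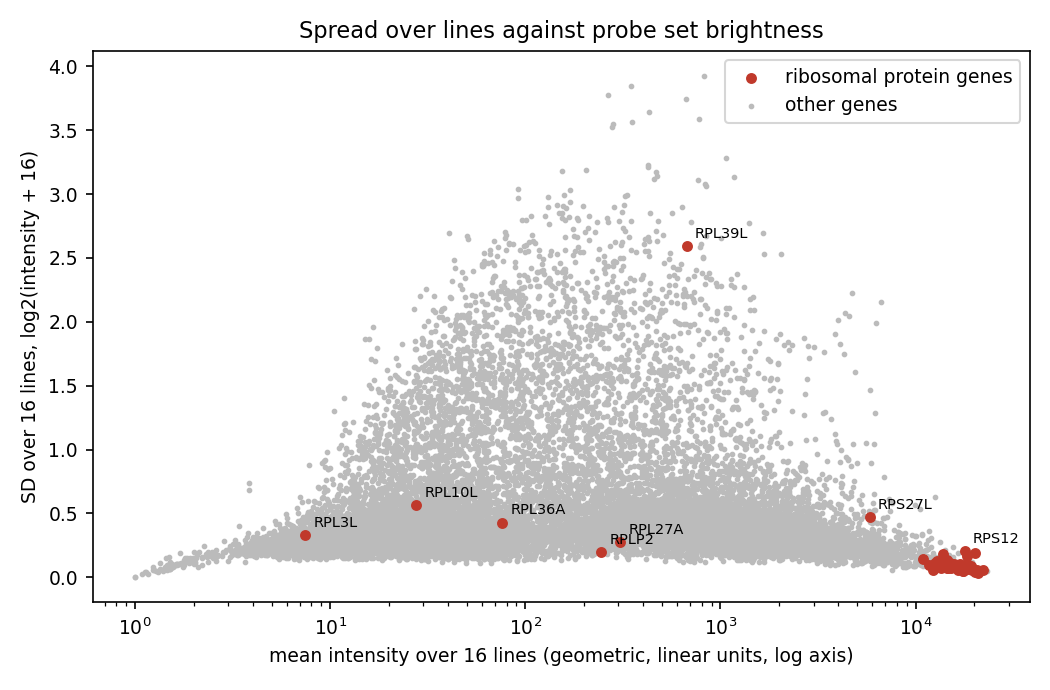
Spread over the 16 lines (SD of log2(intensity + 16)) against mean brightness (log axis) for every gene, with the ribosomal protein genes marked. The 49 members brighter than 10000 had a median SD of 0.081, and RPL39L stood far above the other members at 2.59.

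Spread depended on brightness on these arrays. In the band above 10000 the 49 members had a median SD of 0.081 and the 105 other genes a median SD of 0.130. Between 5000 and 10000 the only member, RPS27L, had an SD of 0.47, against a median of 0.220 for 385 other genes. The median SD of other genes was 0.343 for 3362 genes between 1000 and 5000, 0.454 for 4129 genes between 200 and 1000 and 0.336 for 11738 genes below 200, so it fell with brightness above 200. Array maxima ran from 22159 to 24485, close to the brightest members such as RPS23 with a median of 22140, and the part of signal saturation in the small spread was not tested. The remaining 6 members had a mean below 1000 (the mean of log values, which for RPL39L lies under its median of 1631 because of its low lines). The other 5, RPL10L, RPL36A, RPL3L, RPL27A and RPLP2, stayed below 1000 in every line, where probe sets are dim and a level in 1 line is less secure.

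The narrowest member was RPS16, a small-subunit protein, which ran from 20004 in JURKAT through a median of 20970 to 21969 in PF-382, with an SD of 0.036. RPL41, which encodes one of the shortest human proteins, ran from 18873 in TALL-1 through a median of 20438 to 21264 in MOLT-16, with an SD of 0.046. RPL39, at the nascent chain exit tunnel, ran from 16237 in P12-ICHIKAWA through a median of 17574 to 18810 in LOUCY, with an SD of 0.048. RPL9, RPS19 (the gene most often mutated in Diamond-Blackfan anaemia) and RPS27 followed with SDs of 0.048, 0.055 and 0.056. In each of these 6 genes the brightest line was at most 1.16 times the dimmest.

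The widest member was RPL39L, the paralog of RPL39, known for its expression in testis and in some cancers. It measured 16.01 in ALL-SIL, 17.5 in DU528, 19.3 in TALL-1 and 34.6 in MOLT-4, all below the table median. The other 12 lines were 526.9 in LOUCY, 1035 in HSB-2, 1261 in SUP-T11, 1605 in KOPT-K1, 1656 in P12-ICHIKAWA, 2008 in SUP-T13, 2110.5 in MOLT-16, 2232 in PF-382, 2301 in PEER, 2866 in SKW-3, 3076 in JURKAT and 3267 in CCRF-CEM. The lines thus fell into 4 near background and 12 that expressed the gene, with no value between 34.6 and 526.9. The SD was 2.59, in which the size of the step from background depends on the 16 added before the log. Neighbouring lines among the upper 12 cannot be ordered, since 1 array per line gives no error. RPL39L has a single probe set, so no second probe set was at hand.

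**Figure D2:**
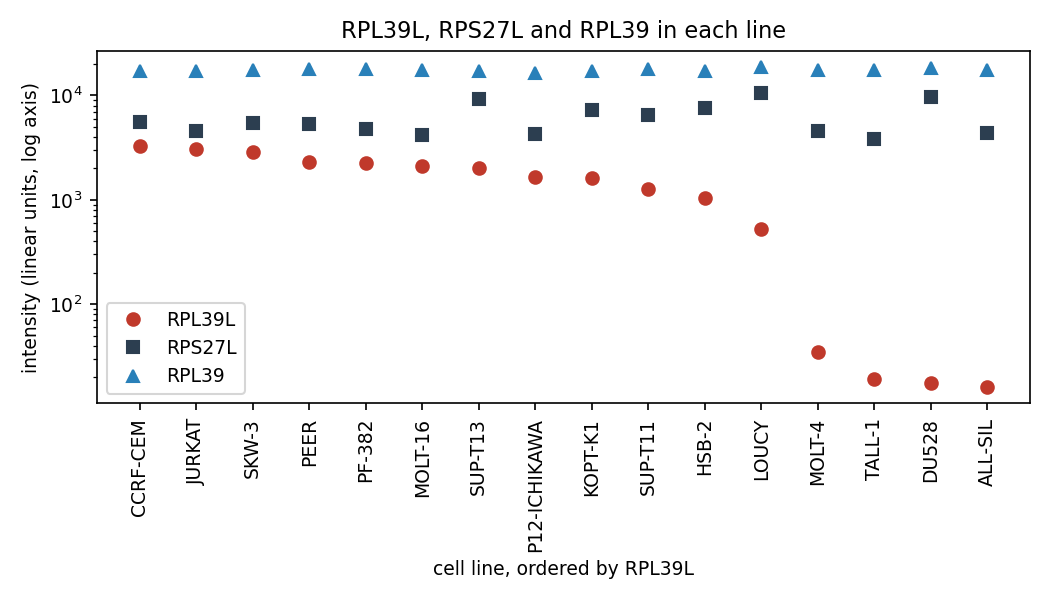
Intensity (log axis) of RPL39L, RPS27L and RPL39 in each of the 16 lines, ordered by RPL39L, 1 point per line and gene. RPL39L is near background in ALL-SIL, DU528, TALL-1 and MOLT-4 and between 526.9 and 3267 in the other 12 lines, while RPL39 stays between 16237 and 18810; levels of different genes come from different probes and are not compared.

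The genes most like RPL39L over the 16 lines, taken after the values were seen, were RTL8A (r = 0.85), DNAJC15 (r = 0.83), the uncharacterised LOC100128653 (r = 0.81), PSAT1 (r = 0.80) and CD59 (r = 0.79). The most opposite were RAB6A (r = -0.77), PRDM15 (r = -0.76) and NAALAD2 (r = -0.76). These values are descriptions picked from 13310 genes, and where both genes are low in the same few lines those lines carry most of r. PSAT1, an enzyme of serine synthesis, was 10.0 in ALL-SIL, 4.88 in DU528 and 14.1 in TALL-1 and 2381 to 10856 in the 11 lines outside these 3, LOUCY and MOLT-4. The match was not complete, since MOLT-4 had 1939 for PSAT1 and 34.6 for RPL39L, and LOUCY had 8.52 for PSAT1 and 526.9 for RPL39L.

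RPL10L and RPL3L, paralogs known from testis and from striated muscle, stayed low. RPL10L ran from 5.99 in MOLT-16 through a median of 25.8 to 68.8 in TALL-1, and RPL3L from 1.03 in DU528 through a median of 7.44 to 15.9 in KOPT-K1. RPL3L was the only member that did not pass the filter on low values used for the fits below. RPL36A was also dim on its only probe set, from 24.2 in MOLT-16 through a median of 82.6 to 105.6 in PEER. Their SDs of 0.56, 0.33 and 0.43 are spreads near background.

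RPS27L, the paralog of RPS27 and a known target of p53, was the widest of the bright members. It ran from 3858 in TALL-1 through a median of 5389 to 10639 in LOUCY, with DU528 at 9745 and SUP-T13 at 9321, a 2.75-fold range and an SD of 0.47. The other probe sets of the gene followed it (r = 0.92 and r = 0.89 over lines). It was one of the 6 members without a TOP run.

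Wide spreads were also seen in 2 members on dim probe sets. RPL27A, of the large subunit, ran from 166 in SUP-T11 through a median of 312 to 416 in KOPT-K1, with an SD of 0.27. RPLP2, an acidic protein of the ribosomal stalk, ran from 182 in MOLT-16 through a median of 241 to 301 in TALL-1, with an SD of 0.20. The gap from the lowest line to the next was wider in RPL27A, whose next line was MOLT-16 at 250.7, than in RPLP2.

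Several of the widest bright members had a low line or lines. RPS12, of the small subunit, measured 10867 in LOUCY, against 16019 in JURKAT as the next line, a median of 18423 and 20213 in ALL-SIL at the top. LOUCY lay 0.56 log2 units below the next line. The probe set is of the type marked as able to bind other transcripts, and the only other one for RPS12 was near background (1.04 to 34.2), so no second probe set was at hand. RPS6, the target of the S6 kinases, measured 14075 in SUP-T11, 16747 in P12-ICHIKAWA, a median of 21021 and 23025 in PEER. The probe set used for RPS6 is also of the type marked as able to bind other transcripts. The other bright probe sets of RPS6 gave the same pattern (r = 0.99 and r = 0.97).

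RPL12, at the base of the stalk, measured 10445 in LOUCY, 11071 in PEER, a median of 14393 and 16634 in MOLT-16. Its second probe set followed it (r = 0.98), with PEER lowest there at 8861. Both probe sets of RPL12 are of the type marked as able to bind other transcripts. RPL31, near the exit tunnel, measured 14259 in LOUCY, 14820 in PEER and 15416 in ALL-SIL, with a median of 18900 and a highest value of 20642 in MOLT-16. Those 3 lines were below all others, of which P12-ICHIKAWA was lowest at 18129. This probe set is of the type marked as able to bind other transcripts, and the dimmer ones gave another order. On one (r = 0.70) LOUCY and ALL-SIL were lowest at 207 and 266, but HSB-2 at 383 lay below PEER at 475. On the other (r = 0.39) HSB-2 was lowest at 80.0, and LOUCY at 275 was above the median of 266. RPS9 measured 8377 in SUP-T11, 8865 in LOUCY, a median of 11255 and 12425 in MOLT-4, and on its other bright probe set LOUCY was lowest at 7758 and SUP-T11 next at 8166. On the probe sets used, LOUCY was thus lowest or next to lowest in RPS12, RPL12, RPL31 and RPS9, and SUP-T11 lowest in RPS6 and RPS9.

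**Figure D3:**
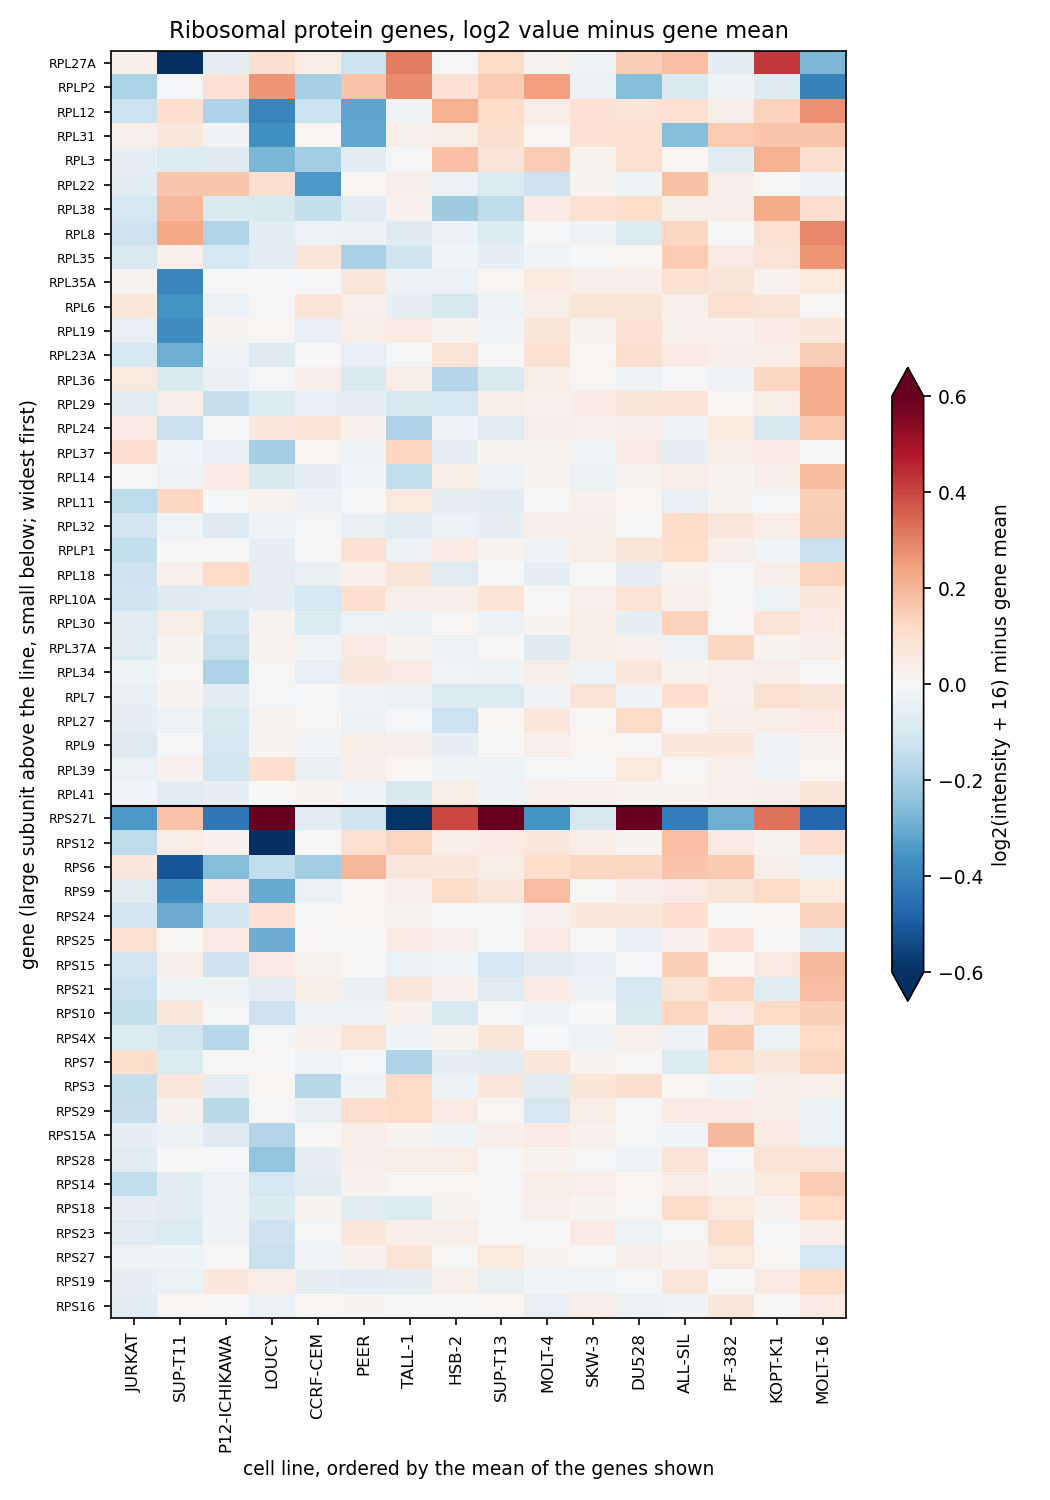
Level in each line (columns) of the 52 ribosomal protein genes above the table median in every line (rows, large subunit above the line), as log2(intensity + 16) minus the mean of that gene over the 16 lines. Most rows are nearly even; RPS12 is lowest in LOUCY (10867), RPS6 in SUP-T11 (14075), and RPS27L varies most, from 3858 in TALL-1 to 10639 in LOUCY.

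A line set apart at the low end, at least 0.5 log2 units below the next line which is itself above the table median, was found in 3 of 56 members. They were RPL27A in SUP-T11, RPL36A in MOLT-16 and RPS12 in LOUCY, against 9.74% of all genes. No member had a line at least 0.5 above all others, against 14.5% of all genes. At a gap of 1, no member was set apart low or high, against 3.57% and 5.66% of all genes. For RPL36A the next line, JURKAT at 46.0, was only just above the table median of 42.37. With arrays centred on their medians only RPL27A and RPS12 were set apart low, and with a pseudocount of 64 only RPS12. Without _x_at probe sets RPS12 has no value, and RPL22 in CCRF-CEM was set apart low on its next probe set.

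Genes next to some low members on the chromosome were read in the same line, chosen after the values were seen, with the 5 nearest measured genes on each side. Beside RPS12 in LOUCY, the 10 neighbours on chromosome 6 had a median difference of -0.66 log2 units from the median of the other lines, and 4 were over 1 unit below and none above, against 4.1% of all genes below and 7.8% above in that line. STX7 had 3.66 in LOUCY, against a median of 284 in the other lines, and TBPL1 had 499 in LOUCY, against 1046. Beside RPS6 in SUP-T11, the 10 neighbours on chromosome 9 had a median difference of -0.78 and 4 were over 1 unit below, among them HAUS6 with 583 in SUP-T11 against 1675 in the other lines, while HACD4 was above (674 against 275). In SUP-T11 6.8% of all genes were over 1 unit below and 6.53% above. Beside RPL22 in CCRF-CEM on chromosome 1 the median was -0.46, with 2 over 1 unit below and AJAP1 above (69.8 against 11.3), against 1.98% and 3.43% of all genes in that line. Beside RPL27A in SUP-T11 on chromosome 11 the median was -0.12, with 1 over 1 unit below and NRIP3 above (177 against 36.8). Copy number was not measured in these files, and its part in these values was not tested.

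The ends of the order were unevenly shared among the lines. Of the 52 members above the table median in every line, MOLT-16 was highest in 21, while it was highest in 11.5% of the genes passing the filter. Among those 21 were RPL11, RPL12, RPS14, RPS18 and RPS19. LOUCY was lowest in 11, including RPL3, RPS23, RPS25 and RPS28, against 8.10% of the genes. P12-ICHIKAWA was lowest in 10 against 6.81% and JURKAT in 9 against 4.96%. SUP-T11 was lowest in 8 of the 52, which is near its share of 13.2% among the genes. The 8 of SUP-T11 were RPL19, RPL23A, RPL27A, RPL35A, RPL6, RPS24, RPS6 and RPS9. The differences behind these ranks were small, and MOLT-16 and LOUCY were also the arrays with the lowest and the highest median. P12-ICHIKAWA, SUP-T11 and JURKAT were the arrays with the lowest means (469, 485 and 488). The part of array scaling in the ranks was not tested beyond the centred and quantile values that follow.

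The mean of the 52 members, each centred on its own mean, ran from -0.066 log2 units in JURKAT through -0.058 in SUP-T11, -0.056 in P12-ICHIKAWA and -0.052 in LOUCY to 0.056 in KOPT-K1 and 0.060 in MOLT-16. The whole module thus moved little between its lowest and highest line. The order depended on the scaling. With arrays centred on their medians the mean ran from -0.113 in LOUCY to 0.184 in MOLT-16, and with quantile normalization from -0.064 in LOUCY to 0.039 in KOPT-K1. Under quantile normalization JURKAT stood at 0.006, P12-ICHIKAWA at 0.021 and SUP-T11 at -0.021. The large-subunit mean in MOLT-16 was 0.071 and the small-subunit mean 0.043, and in JURKAT they were -0.054 and -0.082.

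Members varied together only weakly. Over 1326 pairs of the 52 members the median r over the 16 lines was 0.20, against 0.005 for pairs of all genes passing the filter. It was 0.18 within the large subunit, 0.28 within the small subunit and 0.19 between them. In 15 pairs r was above 0.8 and in 12 below -0.5. The closest pairs were RPL19 with RPL35A (r = 0.92), RPS12 with RPS28 (r = 0.92) and RPL35A with RPL6 (r = 0.91). RPL19, RPL35A and RPL6 share their lowest line SUP-T11 and RPS12 and RPS28 share LOUCY, and a single line weighs heavily where the other values are nearly level. The members' values share the arrays and their scaling, and the median was 0.56 with arrays centred on their medians and 0.063 with quantile normalization.

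Among genes outside the module, the 8 most like the members' mean were AGO1 (r = 0.80), SYS1 (r = 0.78), MTDH (r = 0.77), CCNT2-AS1 (r = 0.76), EIF1 (r = 0.76), ANXA4 (r = 0.76), FAM120AOS (r = 0.75) and SLC35H1 (r = 0.74). EIF1 is a translation initiation factor and AGO1 a protein of RNA silencing. The 4 most opposite were AGAP1 (r = -0.78), AHCYL2 (r = -0.78), CTIF (r = -0.77) and ZNF304 (r = -0.77). All are read over 16 lines with no test.

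RPL22, an RNA-binding large-subunit protein, was followed with its paralog RPL22L1, which RPL22 is known to repress in mouse cells. RPL22 ran from 10976 in CCRF-CEM, with MOLT-4 next at 12789, through a median of 14005 to 15753 in ALL-SIL. RPL22L1 ran from 2091 in SUP-T11 through a median of 4724 to 11794 in HSB-2. SUP-T11, TALL-1, ALL-SIL, P12-ICHIKAWA, PF-382, PEER, LOUCY and SKW-3 had 2091 to 3682, and the other 8 lines had 5766 to 11794. CCRF-CEM, lowest in RPL22, had 7750 for RPL22L1.

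The levels of RPL22 and RPL22L1 moved in opposite directions over the lines, with Pearson's r = -0.66 (permutation p = 0.00244, adjusted p = 0.00976) and Spearman's rho = -0.78 (permutation p = 0.00057, adjusted p = 0.00228). P-values are two-sided and adjusted by Benjamini-Hochberg over the 8 relations tested of 12 planned. Without ALL-SIL and CCRF-CEM, the 2 lines farthest from the median of RPL22, r was -0.76. The gap between the 8 low and the 8 high lines in RPL22L1 was 25.9% of its range, too small to call for separate tests. Inside the sets, which each hold only part of the range of RPL22L1, r was -0.53 in the low and 0.23 in the high lines, and 8 lines are too few to settle a relation there. Without LOUCY and SUP-T11, left out together after the values were seen, r was -0.59 (permutation p adjusted 0.060).

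The relation rested on the probe set used for RPL22. It was found on the 3 probe sets of RPL22 of type _x_at, which the manufacturer marks as able to bind other transcripts (r of -0.66, -0.69 and -0.72). On the remaining 2 probe sets it did not pass. The one of type _s_at gave r = -0.45 (permutation p = 0.0806, adjusted p = 0.280). The one of type _at gave r = -0.17 (permutation p = 0.537, adjusted p = 0.716). All 5 gave CCRF-CEM as the lowest line, with 1981 and 1711 on those remaining 2. They placed LOUCY next to lowest, at 2886 and 2113, while the main probe set gave it 14910, above the median. The part of related sequences in the signal was not tested.

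**Figure D4:**
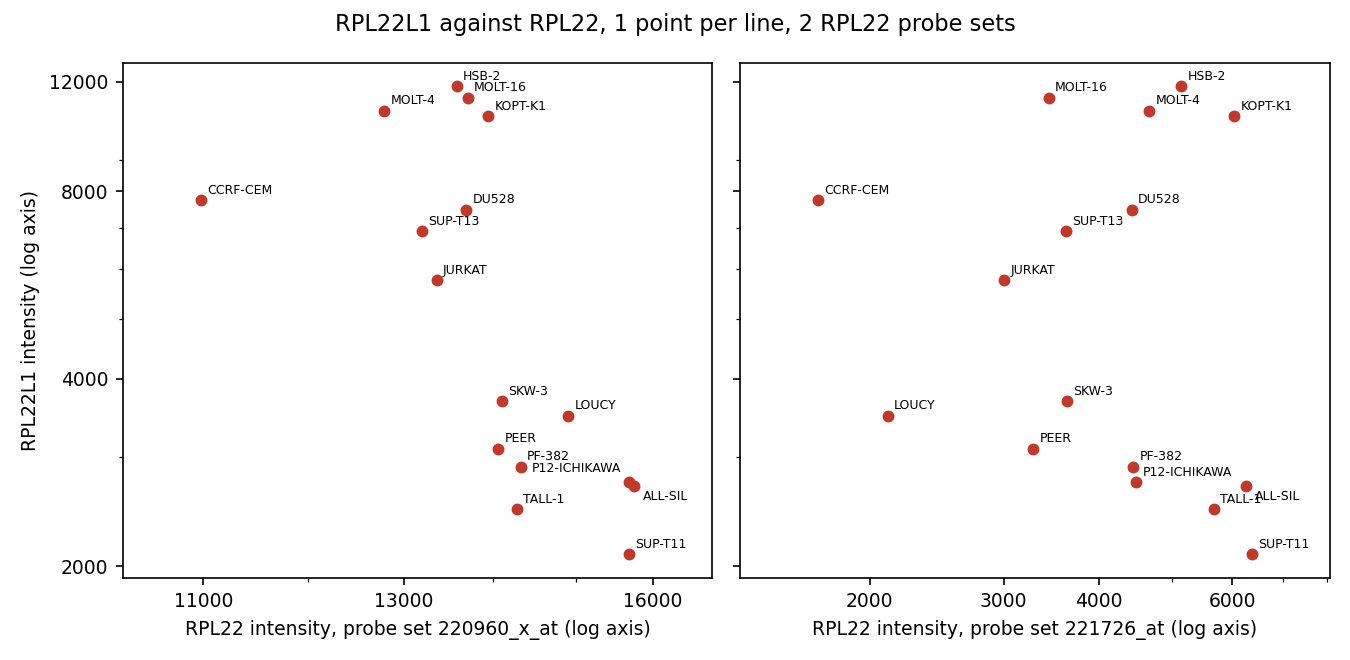
RPL22L1 intensity against RPL22 intensity (log axes), 1 point per line, for the RPL22 probe sets named on the horizontal axes. On the main probe set r was -0.66 over 16 lines with CCRF-CEM lowest in RPL22 at 10976, and on the other probe set shown r was -0.17.

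RPS27L was set against CDKN1A, which encodes the cell-cycle inhibitor p21 and is a target of p53. CDKN1A ran from 3.06 in ALL-SIL through a median of 32.7 to 3238 in DU528. HSB-2 at 2767, KOPT-K1 at 1272 and LOUCY at 684 came next, and then SUP-T13 at 111. These 4 lines had 7282 to 10639 for RPS27L, above every other line except SUP-T13 at 9321.

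Over the 16 lines r between RPS27L and CDKN1A was 0.80 (permutation p = 0.0005, adjusted p = 0.004) and rho was 0.84 (permutation p = 9e-05, adjusted p = 0.00072). Without DU528 and LOUCY, the lines farthest from the RPS27L median, r was 0.71. In the 12 lines with CDKN1A at 111 or less r was 0.65 (permutation p = 0.0193) and rho 0.69 (permutation p = 0.0152), a set taken although the gap of 33.3% of the range fell just short of the limit for separate tests. CDKN1A was at 3.06 to 16.1 in 8 of those 12 lines, below the table median of 42.37, so most of that order lies in values near background. With the ACTB ratio taken out of both genes r was 0.74 (permutation p adjusted 0.00728). RPS27L itself fell with that ratio (r = -0.71), and CDKN1A did less so (r = -0.48).

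**Figure D5:**
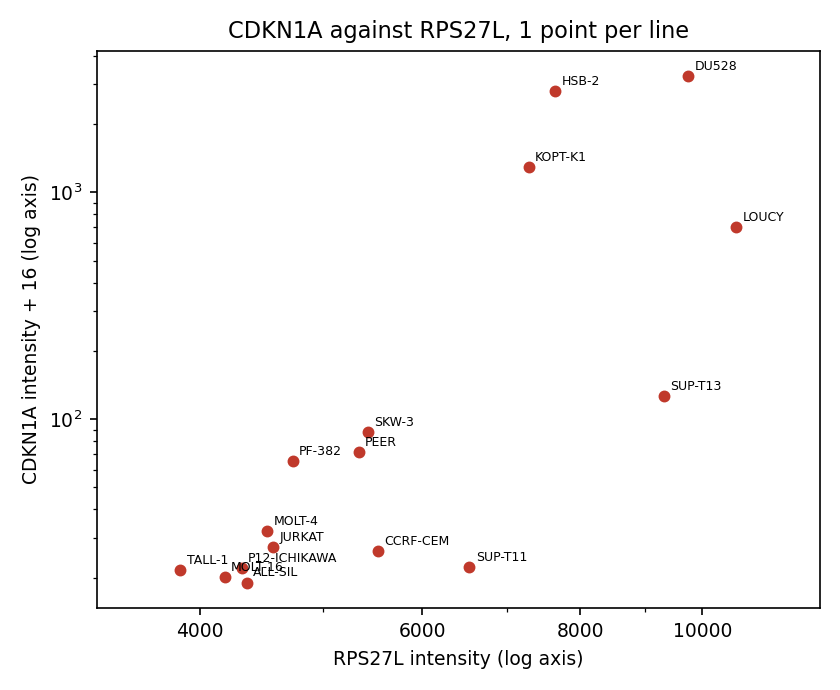
CDKN1A (intensity + 16) against RPS27L intensity, log axes, 1 point per line. The 4 lines with CDKN1A at 684 or more have 7282 to 10639 for RPS27L, and TALL-1 is lowest in RPS27L at 3858.

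The other planned relations did not pass. MDM2, the ubiquitin ligase of p53, ran from 1143 in MOLT-16 through a median of 1703 to 2883 in JURKAT. With RPS27L it gave r = 0.38 (permutation p = 0.140, adjusted p = 0.280), and it did pass with the mean of all probe sets (r = 0.64, permutation p adjusted 0.031) and with the ACTB ratio taken out (r = 0.64, permutation p adjusted 0.0214). RPS27 with RPS27L gave r = -0.18 (permutation p = 0.502, adjusted p = 0.669). RPL39 with RPL39L, in the 12 lines that express the paralog, gave r = -0.46 (permutation p = 0.133, adjusted p = 0.280), and without LOUCY r was 0.022.

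RPL7 with RPL7L1 gave r = 0.097 (permutation p = 0.718, adjusted p = 0.820), where RPL7L1 ran from 4742 in PEER through a median of 5612 to 6442 in ALL-SIL. RPL36A with RPL36AL gave r = 0.020 (permutation p = 0.934, adjusted p = 0.934), where RPL36AL ran from 5245 in P12-ICHIKAWA through a median of 7472 to 9778 in TALL-1. The stalk partners RPLP1 and RPLP2 gave r = 0.21 (permutation p = 0.438, adjusted p = 0.669). RPL26L1, whose parent RPL26 was not analysed here, ran from 1545 in TALL-1 through a median of 3344 to 4424 in JURKAT.

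The question whether the module follows MYC was put to 15 lines. MYC was 23.6 in LOUCY and between 3638 in TALL-1 and 9553 in MOLT-16 in the other lines, so LOUCY was left out. A limma slope on log2(MYC + 16) passed an adjusted p of 0.05 in none of 13309 genes in either direction (0.0%), and so in none of 55 members. At an unadjusted limma p under 0.05, in either direction, stood 14 of the 55 members (25.5%) and 8.19% of all genes. Of these members RPL10L and RPL36A, both on dim probe sets, fell with MYC (slopes of -0.90 and -0.58), and the others rose. The count of members was 6 without MOLT-16 (all genes 6.11%), 6 with quantile normalization (all genes 8.43%) and 29 with centred arrays (all genes 9.94%). In limma without trend and robust it was 3, with 8.28% of all genes, so the share above all genes depended on the setting. The slope was positive in 39 members and in 6498 of the 13309 genes. Its median was 0.055 log2 units per doubling of MYC in the members, against -0.010 for all genes. The lowest adjusted p among members was 0.281, for RPS18 with a slope of 0.13 (SE 0.031).

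RPL35 had a MYC slope of 0.21 (SE 0.055, limma adjusted p = 0.331), from 11059 in PEER to 15185 in MOLT-16. RPL10L had a slope of -0.90 (SE 0.27, limma adjusted p = 0.419) at levels near background. The members' median slope was 0.019 with quantile normalization, below the 0.030 of all genes, and 0.121 with centred arrays, against 0.069. With LOUCY included, 2 members passed, RPS12 with a slope of 0.10 (limma adjusted p = 0.000135) and RPS25 with 0.042 (limma adjusted p = 0.0376), against 0.308% of genes higher and 0.458% lower with MYC. Both are lowest in LOUCY, and both passed only with that line.

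Lists of related genes were read in the same 15-line fit, and none held a gene that passed. Of all 13309 genes tested, 6498 had a positive slope and 8.19% an unadjusted limma p under 0.05. Of 30 tested genes of ribosome biogenesis, 27 had a positive slope, 11 (36.7%) had an unadjusted p under 0.05 and the median slope was 0.29. On the ACTB ratio the same list had 26 positive slopes, 8 at an unadjusted p under 0.05 (26.7%, against 14.3% of all genes) and none that passed; its part in the MYC slopes was not tested for this list. RRP9, of the small-subunit processome, ran from 193 in SUP-T11 through a median of 321 to 640 in MOLT-16, with a MYC slope of 0.72 (limma adjusted p = 0.419). FBL, the rRNA methyltransferase fibrillarin, ran from 6608 in DU528 through a median of 8993 to 11438 in MOLT-16, with a slope of 0.29 (limma adjusted p = 0.483). TSR1, a small-subunit assembly factor, ran the other way with a slope of -0.55 (limma adjusted p = 0.274), from 949 in MOLT-16 to 2019 in SUP-T13.

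Among 75 mitochondrial ribosomal protein genes 49 slopes were positive and 20 (26.7%) had an unadjusted p under 0.05, with a median slope of 0.15. These 20 held genes of both directions. MRPL14 ran from 1782 in LOUCY through a median of 2617 to 3953 in ALL-SIL, with a slope of 0.55 (limma adjusted p = 0.271). MRPL9 ran the other way with a slope of -0.31 (limma adjusted p = 0.483), from 2561 in MOLT-16 to 4317 in JURKAT. Among 28 genes of RNA polymerases I and III, 17 slopes were positive and 3 (10.7%) had such a p, with a median of 0.083. Among 22 other transcripts with a TOP tract, 13 were positive and 2 (9.09%) had such a p, with a median of 0.055. Both shares are near the 8.19% of all genes. EEF2, the elongation factor, ran from 10082 in SUP-T11 through a median of 14659 to 16466 in ALL-SIL, with a slope of 0.20 (limma adjusted p = 0.606). The mTORC1 pathway had 10 positive slopes of 14 and 2 such p-values (14.3%). The p53 targets had 5 of 13 and none, and the 4 paralogs outside the rule 2 of 4 and none.

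These lists also varied more over the lines than the ribosomal protein genes, whose median SD was 0.087. The median SD was 0.159 for the other TOP transcripts, 0.305 for ribosome biogenesis, 0.315 for the mitochondrial ribosome, 0.332 for RNA polymerases I and III, 0.368 for the mTORC1 pathway and 0.666 for the p53 targets. They were also dimmer, with 10 of 23 other TOP transcripts above 10000 and 2 of 30 genes of ribosome biogenesis. VIM was the widest of the TOP transcripts, from 3896 to 16200.

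A limma slope on the log2 ACTB ratio over all 16 lines called 12 genes higher (0.0902%) and 54 lower (0.406%) of 13310, and none of the 55 members. RPS27L came closest with a slope of -2.10 (SE 0.52, limma adjusted p = 0.0769). Only 3 members had an unadjusted limma p under 0.05, against 14.3% of all genes.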

How the data were processed

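The deposited table holds 1 linear intensity per probe set and array, 54675 probe sets by 16 lines, as the authors made it. Per the labels, total RNA was hybridised to Affymetrix U133 Plus 2.0 arrays. Software, background correction and scaling behind them: not given in the sources used here. No counts exist for arrays, and precision is limited by 1 array per line, with p-values measuring the spread between lines. All columns mapped to a line (0 unmapped).

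Genes were named from the platform annotation. Of the probe sets 41097 name 1 gene, 1801 several and 11777 are unlisted. Per gene the probe set with the highest mean naming only that gene was used. The 56 members have 117 probe sets, 22 of them having 1. The probe sets used were 13 of type _x_at, 29 _s_at and 14 _at. Of 61 other probe sets, 42 exceeded 4 times the table median (169), with a median r of 0.69 to the one used. Values were log2(intensity + 16), with no further normalization.

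Slopes were fitted with limma 3.58.1 (trend, robust) in R 4.3.3 over genes above the table median in at least 3 lines, adjusted by Benjamini-Hochberg and called at 0.05. Relations used two-sided permutation tests with 100000 resamples, exact for 8 lines, in Python 3.11.15 with scipy 1.17.1. A gene with a gap of at least 0.333 of its range and at least 3 lines on each side was tested separately in each set of 6 or more lines; values within sets for RPL22L1 and CDKN1A, whose gaps fell short of this, were added. The tests were checked on simulated data, for the MYC fit with planted slopes larger than the members' median slope. That check does not show whether slopes as small as that median would be found. Genes described in detail were the 12 members widest over the lines, the 6 narrowest, members of the planned pairs, and up to 4 genes per list and direction by p in the MYC fit. Members and lists were chosen with earlier results of these data known. Alternatives were the pseudocount, array centring, quantile normalization, the choice of probe set, the filter, limma's options, the ACTB ratio and leaving out each line.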

Additional observations from a re-analysis of the deposited data

How the results depend on the processing

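The spread of the members stayed below that of all genes under every alternative run, with a median SD of 0.0739 to 0.254. The 0.254 came from the probe set with the highest SD per gene, where all genes had 0.402. Without each line in turn it was 0.0794 to 0.0898. The members set apart low were 1 with a pseudocount of 64 and 2 with centred arrays, which left out RPL36A. They were 5 with the highest-SD probe sets (RPL27A, RPL36A, RPS15, RPS21 and RPS23), which left out RPS12. The median pairwise r was 0.557 with centred arrays, 0.063 with quantile normalization, 0.099 with the mean of probe sets and 0.074 with the highest-SD probe sets, and 0.177 to 0.248 without each line. For MYC, 2 members passed with all 16 lines and 0 under the other alternatives. For the ACTB ratio 0 members passed under every alternative. Leaving out each line gave 0 members in both fits.

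RPL22 with RPL22L1 lost its call with centred arrays (r = -0.51, permutation p adjusted 0.153), the mean of probe sets (r = -0.46, adjusted p = 0.168 by permutation), the highest-SD probe set (r = -0.17, permutation p adjusted 0.627), without _x_at probe sets (r = -0.45, permutation p adjusted 0.245), on each single probe set of another type (r = -0.45 and r = -0.17), and without LOUCY and SUP-T11 (r = -0.59, permutation p adjusted 0.060). Without each line r was -0.77 to -0.61. RPS27L with CDKN1A kept its call, with r of 0.70 to 0.85, under every alternative but a pseudocount of 64, where the gap rule left 12 lines and r was 0.68 (permutation p adjusted 0.0623). RPS27L with MDM2 passed with the mean of probe sets (r = 0.64) and with the ACTB ratio taken out (r = 0.64), and without each line r was 0.27 to 0.57.

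Relations that had not passed changed sign in places. RPL36A with RPL36AL gave -0.084 with centred arrays and -0.19 with the ACTB ratio taken out, and -0.098 to 0.075 without each line. RPLP1 with RPLP2 gave -0.0025 with centred arrays and -0.17 with the mean of probe sets, and -0.089 to 0.33 without each line. RPS27 with RPS27L gave 0.45 with the mean of probe sets, 0.39 with the highest-SD probe sets and 0.24 without LOUCY and SUP-T11, and -0.38 to 0.20 without each line. RPL39 with RPL39L gave 0.19 without LOUCY and SUP-T11, and -0.64 to 0.022 without each line. RPL7 with RPL7L1 gave -0.14 to 0.27 without each line. The cause was not tested. Leaving out LOUCY and SUP-T11 together and reading single RPL22 probe sets were chosen after seeing the data. No paired analysis was possible because the 16 lines form 1 group. RPS12 was not set apart with the mean of probe sets or the highest-SD probe sets, both of which take in its near-background probe set, and has no value without _x_at probe sets, both of its own being of that type. Members at an unadjusted p under 0.05 on MYC ranged from 3 to 29 over all alternatives. Dim probe sets limit RPL10L, RPL3L, RPL36A, RPL27A and RPLP2.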
